A study of Sus scrofa with 6 samples.

Results

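In MeDIP-seq data of pig muscle, 238851 of 2136580 windows of 1 kb on chromosomes 1 to 18 (11.2%) held no fragment in any of 6 libraries. These empty windows were chosen by their counts. Each fragment was assigned by its midpoint to a window of 1 kb, and a window was taken when its count was 0 in all 6 libraries. Their emptiness is therefore the rule and not a result, and it is given without a test. The libraries came from longissimus dorsi muscle of female Jinhua pigs, a Chinese breed, with 3 MA pigs aged 7 years and 3 Young pigs aged 0.5 years, and the study asked how methylation differs between these ages. Each library is 1 labelled sample, and the labels name no treatment and no batch. Muscle identity cannot be read from genomic DNA fragments, so it was taken from the labels.

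MeDIP-seq shears genomic DNA, captures the pieces that carry methylated cytosine with an antibody, and sequences them in pairs. Depth in a window therefore rises with both the methylation of its CpG sites and their number. Sequence with few CpGs, unmethylated CpGs, sequence to which reads align in several places and unresolved sequence of an assembly all give few fragments in such data. The deposited positions refer to Sscrofa9.2, and the sequence of that build was not used here, so their part in the empty windows was not tested and no gene is named.

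The libraries held between 33262285 and 42354002 fragments on these chromosomes, which is a mean of 15.6 to 19.8 fragments per window. Summed over the libraries the mean was 106 fragments per window, and a count of 0 allows up to 3 fragments, or 2.82% of that mean. This limit covers counting error only, in a window fixed in advance. These windows were chosen by their count of 0, and the limit does not allow for that choice. Nearly all empty windows were also bare to the base: 215182 of them (90.1%) had no base covered by any fragment. Among windows that were empty alone, with covered neighbours on both sides, this share was lower, at 63.5%. Over all bases of the 18 chromosomes, 18.01% were never covered, and 76.6% of those bases lay in stretches of 1 kb or more.

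The number of windows fell from 0 fragments upward and then rose again, which describes the counts used by the rule. Just outside the rule, 38280 windows held 1 fragment over the 6 libraries and 26523 held 2. Between 0 and 20 fragments, the number was lowest at 5, with 16051 windows, and then rose again to 25340 windows at 14 fragments. Windows just outside the rule lay beside empty ones far more often than windows with more fragments did. Of the windows with 1 fragment, 57.8% adjoined an empty window, against 8.72% of those with 6 to 20 fragments and 1.99% of those with 21 or more. The single fragments came from all libraries: MA 1 supplied 18.7% of them and 18.7% of all fragments, and Young 2 supplied 14.7% and 16.0%.

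**Figure D1:**
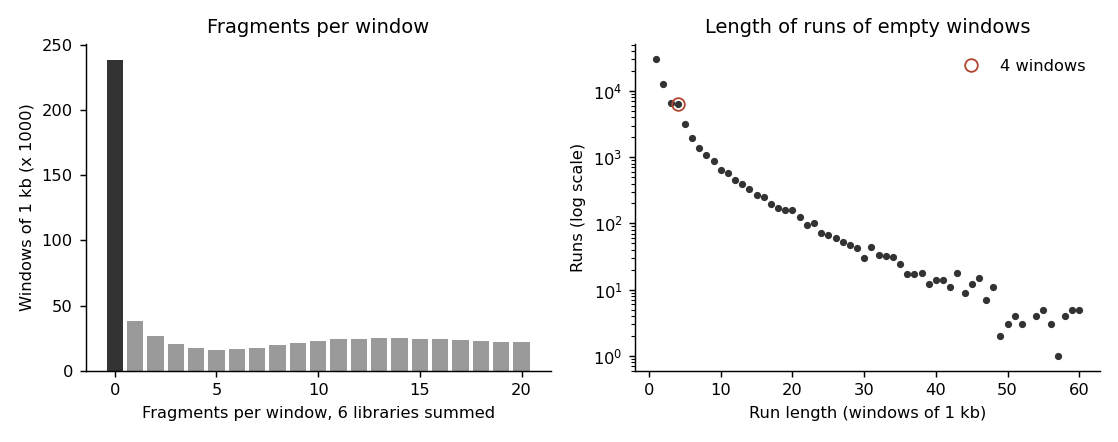
Left, number of 1 kb windows (x 1000) by their fragment count summed over 6 libraries, from 0 to 20, with the empty windows in black (238851) and the lowest bar at 5 fragments (16051). Right, number of runs of neighbouring empty windows (log scale) by run length up to 60 windows, where the circled point at 4 windows (6387 runs) lies almost level with that at 3 windows (6667 runs).

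The libraries resembled each other in which windows they left empty. The share of windows without a fragment was 16.3%, 18.3% and 17.3% in MA 1, MA 2 and MA 3, and 15.9%, 17.8% and 16.9% in Young 1, Young 2 and Young 3. As deposited, without thinning to equal totals, the 2 ages overlapped, with MA 2 the highest and Young 1 the lowest. Windows empty in all 6 libraries made up 61.0% to 70.5% of the empty windows of a single library. Windows empty in exactly 5 libraries numbered 44308, those empty in exactly 3 numbered 39456, and 1570156 windows had fragments in every library.

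Each library was also set against windows chosen in the other 5 alone. For each library, the windows empty in the other 5 were taken, and the share that held a fragment in the library left out was counted. It was 3.41% (95% exact Clopper-Pearson interval 3.34 to 3.48, counting error only) for MA 1, 2.79% for MA 2, 3.06% for MA 3, 3.43% for Young 1, 2.59% (2.53 to 2.65) for Young 2 and 2.71% for Young 3. The mean was 2.998% ± 0.361 (SD, n = 6), so nearly all windows empty in 5 libraries were empty in the library left out as well. The 6 sets overlap, since all contain the windows empty in all 6 libraries. The windows that held a fragment are those given above as empty in exactly 5, so this is no separate check on the empty windows. With every library thinned to the same number of fragments, the mean was 3.07%.

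This share depended on the length of the run, that is, of the unbroken series of empty windows in the other 5 libraries. It was 9.54% ± 1.18 (SD, n = 6) for windows empty alone and 5.18% ± 0.672 in runs of 2 to 3 windows. It was 2.10% ± 0.255 in runs of 4, 1.79% ± 0.194 in runs of 5 to 9 and 0.529% ± 0.0576 in runs of 10 or more. The highest library of the longest class (0.606%) lay below the lowest library of the class of 5 to 9 windows (1.58%), whereas the libraries of the classes of 4 and of 5 to 9 windows overlapped. Within each library, however, the class of 4 lay above that of 5 to 9, as with 2.53% and 2.06% in Young 1 and 1.85% and 1.61% in Young 2. Long runs were thus the empty windows that a further library filled least often.

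**Figure D2:**
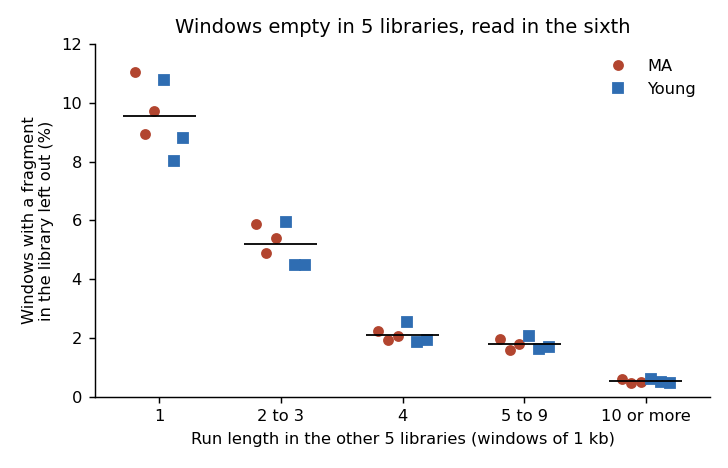
Percent of windows empty in 5 libraries that held a fragment in the library left out (vertical axis), by the length of the run in those 5 libraries (horizontal axis). Points are the 6 libraries (circles MA, squares Young) and lines are their means, which fall from 9.54% for windows empty alone to 0.529% in runs of 10 or more.

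The empty windows formed 69144 runs, with a median of 2 windows, a mean of 3.45 and a maximum of 148. Windows empty alone made up 30439 runs (44.0% of the runs) and 12.7% of the empty windows. Runs of 10 or more windows were 4703 (6.80% of the runs) but contained 84158 empty windows (35.2%), and 90 runs reached 50 windows. The number of runs did not decline evenly with their length. There were 30439, 12494 and 6667 runs of 1, 2 and 3 windows, then 6387 of 4 and 3188 of 5. The ratio of each count to the one before was thus 0.534 at 3 windows, 0.958 at 4 and 0.499 at 5.

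Measured to the base, the surplus at 4 windows began abruptly at 1 length and then tailed off. Stretches without a covered base numbered 599747, of which 79401 were 1 kb or longer. A scan of lengths from 1 kb up, made after the data were seen, placed the sharpest rise in their number at 4602 bp. Between 4402 and 4601 bp there were 888 stretches, and between 4602 and 4801 bp there were 2510, or 2.83 times as many. In the 20 bp on either side the numbers were 76 and 335, a ratio of 4.41. In bins of 100 bp from 4600 bp upward there were 1594, 910, 799, 614 and 503 stretches, against 420 in the bin before. Of the runs of 4 windows, 36.8% (2353 of 6387) contained a stretch of 4602 to 4801 bp, against 2.16% of the runs of 3 windows and 0.408% of those of 5. The contrast with runs of 3 and 5 is largely set by length, since a stretch of this length mostly spans 4 windows.

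Chromosome X was not used to place this length and also showed a rise, from 49 stretches in the 200 bp below 4602 bp to 122 in the 200 bp from it (2.49 times). In the 20 bp on either side it had only 5 and 10 stretches, too few to show how abrupt its rise was. On chromosomes 1 to 18, whose pooled stretches placed the step, the number was higher above it than below it on 18 of 18 chromosomes, which the scan partly builds in, by 1.60 times on chromosome 14 (60 and 96 stretches) up to 7.93 times on chromosome 13. In single libraries, where stretches extend to the next fragment of that library alone, the ratio was smaller, at 1.497 to 1.63 over 200 bp and 1.06 to 1.47 over 20 bp, so the rise at this length was much less abrupt. What these stretches are cannot be read from fragment positions, and their sequence was not used here.

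**Figure D3:**
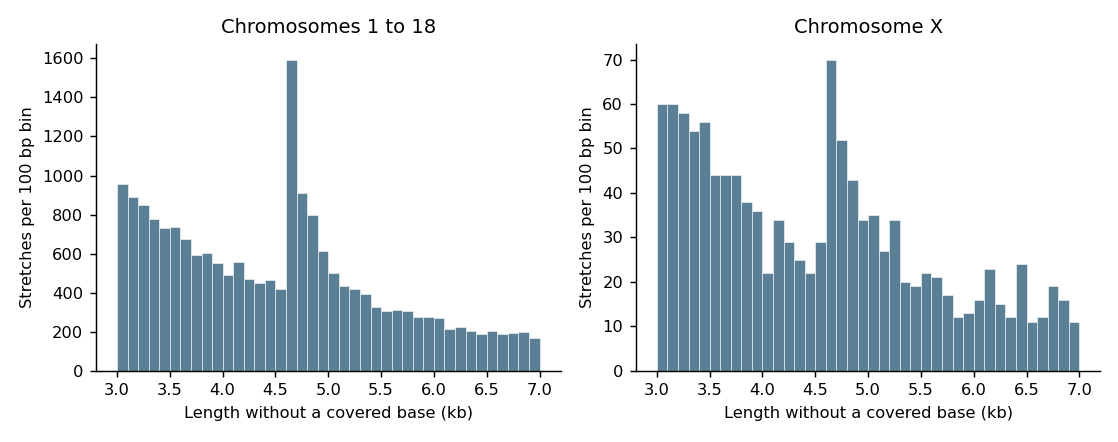
Number of stretches without a covered base in any of 6 libraries (vertical axis, per bin of 100 bp) by their length in kb (horizontal axis, 3 to 7 kb). On chromosomes 1 to 18 (left) the count jumps from 420 in the bin from 4500 bp to 1594 in the bin from 4600 bp, and on chromosome X (right) from 29 to 70.

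The surroundings of the stretches at the step also differed from those of other stretches. Depth at each distance from their edges was divided by the mean depth of the library and averaged over the libraries. Beside stretches of 4602 to 4801 bp it rose from 0.147 ± 0.00331 (SD, n = 6 libraries) in the nearest 50 bp to 1.04 ± 0.00965 at 201 to 250 bp and stood at 1.21 ± 0.0203 at 501 to 550 bp. Beside the 888 stretches just below the step it was 0.0903 ± 0.00333, 0.507 ± 0.00988 and 0.451 ± 0.0114 at the same distances. Beside the 4897 stretches of 10 kb or more it was 0.0908, 0.529 and 0.493. The lowest library beside the step stretches (1.18 at 501 to 550 bp) thus lay above the highest beside the shorter ones (0.463). This separation did not hold at every distance, since at 851 to 900 bp the shorter ones averaged 0.964 ± 0.469 with a highest library of 1.42 and a median over stretches of 0, against a lowest library of 1.12 beside the step stretches. At 501 to 550 bp the median over stretches was far below the means, at 0.311 beside the step stretches and 0.0319 beside those just below the step. All libraries were read at the same stretches, so the SDs and ranges measure the spread between libraries and not between stretches.

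Stretches at the step were extended less in single libraries than those just below it or of 10 kb or more. A single library added a median of 180 to 264 uncovered bases to a stretch of 4602 to 4801 bp, but 1024 to 1712 to a stretch just below the step and 541 to 1215 to a stretch of 10 kb or more. Both edges were those of the pooled stretch in 2.63% to 3.78% of the step stretches and 2.59% to 4.17% of those just below. The step stretches also had the deeper surroundings given above, whose part in this difference was not tested. Their distribution over the genome did not follow that of the empty windows as a whole. The surplus, counted as stretches in the 200 bp from the step minus those in the 200 bp below it, was 1.29 per Mb on chromosome 13 and 1.28 per Mb on chromosome 6, which had the lowest shares of empty windows. It was 0.457 per Mb on chromosome 1, which had the highest share, but 0.935 per Mb on chromosome 5, which had the next highest, and it was lowest on chromosome 14 (0.242 per Mb), where the share was near the median. In the outer 5 Mb of the chromosomes the step stretches numbered 1.51 per Mb against 1.14 in the rest, while those just below the step numbered 0.344 and 0.422.

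The longest run lay at chr7:89619001-89767000 (148 windows), within a stretch of 148481 bp without a covered base. On either side of it coverage was almost nil. The adjoining window before it held 1 fragment in MA 2 and 0 in the other libraries, and the window after it held 1 in MA 3, 1 in Young 2 and 0 in the others. The run of 129 windows at chr14:84716001-84845000 had covered neighbours instead. The window before it held 22, 15 and 20 fragments in the MA libraries, against 18, 11 and 9 in the Young libraries, and the window after it held 47, 41 and 47, and 51, 42 and 44. Coverage there thus stopped and resumed in all 6 libraries, and the window after the run was deeper than the library mean in each of them.

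The run at chr17:60415001-60549000 (134 windows) was covered on 1 side only. The window before it held 43, 46 and 49 fragments in the MA libraries, against 44, 35 and 37 in the Young libraries, while the window after it held 0, 2, 0, 0, 1 and 0. The run at chr7:115266001-115390000 (124 windows) was alike, with a mean of 15.5 fragments per library before it and 1.33 after. The run at chr5:36182001-36300000 (118 windows) had means of 0.500 and 0.667. The longest runs were therefore of both kinds, with and without covered neighbours.

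Among runs of 3 or more windows, the 3 with the deepest adjoining windows were each exactly 4 windows long. Shorter runs had deeper neighbours still, with a mean of up to 3843 fragments per library beside a run of 2 windows and up to 1631 beside a window empty alone. Beside chr12:48533001-48537000, which lay in a stretch of 5148 bp, the window after the run held 2590, 2313 and 2035 fragments in the MA libraries, against 2365, 1031 and 938 in the Young libraries, and the window before it held 6 to 18. The Young 1 library lay within the range of the MA libraries there, and the other Young libraries lay below it. Beside chr1:294453001-294457000 (4758 bp) the window after the run held 946, 749 and 158 fragments in the MA libraries, against 337, 1285 and 1076 in the Young libraries, so that neither age was higher throughout. Beside chr17:64104001-64108000 (4669 bp) it held 647, 720 and 768, and 885, 693 and 665. These deep windows are single cases: the adjoining windows reached the mean depth of the libraries in 11.4% of runs of 4 windows, 3.57% of windows empty alone and 6.68% of runs of 10 or more.

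Around the runs, depth was lower than elsewhere and recovered over many kb. The 301266 covered windows within 5 windows of a run held on average 12.2, 10.5 and 10.4 fragments in MA 1, MA 2 and MA 3 and 11.8, 10.5 and 9.58 in Young 1, Young 2 and Young 3. Divided by the mean of all covered windows of the library, this was 0.548, 0.545 and 0.536 in the MA libraries, against 0.542, 0.547 and 0.546 in the Young libraries. The flanks were below the covered mean in 6 of 6 libraries, by a mean log2 difference of -0.88 ± 0.012 (SD, n = 6), or 0.544-fold. The flanks were located from the empty windows of the same libraries, and uncovered stretches reach into the adjoining windows, so this direction is partly set by the choice of windows and is given without a p-value.

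The extent of the flank set the size of this difference. It was 0.230-fold for the adjoining windows alone and 0.841-fold for 20 windows on each side. With 5 windows on each side, the median over runs was 0.160 of the mean of covered windows. This sets a median against a mean, and the median of all covered windows was itself only 0.522 of the library mean. Relative to the mean of all windows, the depth of covered windows averaged over libraries was 0.239 in the adjoining window, 0.504 in the second, 0.639 in the fifth and 0.784 in the twentieth. Without windows of over 50 times the library mean, these values were 0.230, 0.485, 0.568 and 0.778. On this scale the mean of all covered windows was 1.13, so the surroundings were sparser even 20 kb away, also beside runs of 4 windows (0.999).

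Flanks differed by run length, and runs of 4 windows had the deepest. In the second window from the run, the median depth of covered windows was 0.315 of the library mean beside runs of 4, against 0.193 beside runs of 10 or more, 0.166 beside runs of 5 to 9, 0.0822 beside runs of 2 to 3 and 0.0760 beside windows empty alone. The median of all covered windows was 0.522. Beside runs of 4 the mean depth was 0.960 ± 0.0347 (SD, n = 6) in the second window, and 0.869 without 6 windows of over 50 times the library mean. In the fifth to seventh windows a mean of 1.337 to 1.496 rested on 1 or 2 windows with over 50 times the library mean at each distance, and without them it was 0.922 to 0.930. Short runs thus lay in sparse surroundings and runs of 4 in better covered ones.

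Empty windows also clustered beyond their own run. The window next to a run is covered by definition, but the third window was again empty in 37.0% of cases, against 11.2% of all windows. This share was 56.8% beside runs of 10 or more, 31.4% beside windows empty alone and 29.1% beside runs of 4. At the twentieth window it was still 42.8%, 25.5% and 22.9%. The order of the classes in clustering thus differed from their order in depth.

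**Figure D4:**
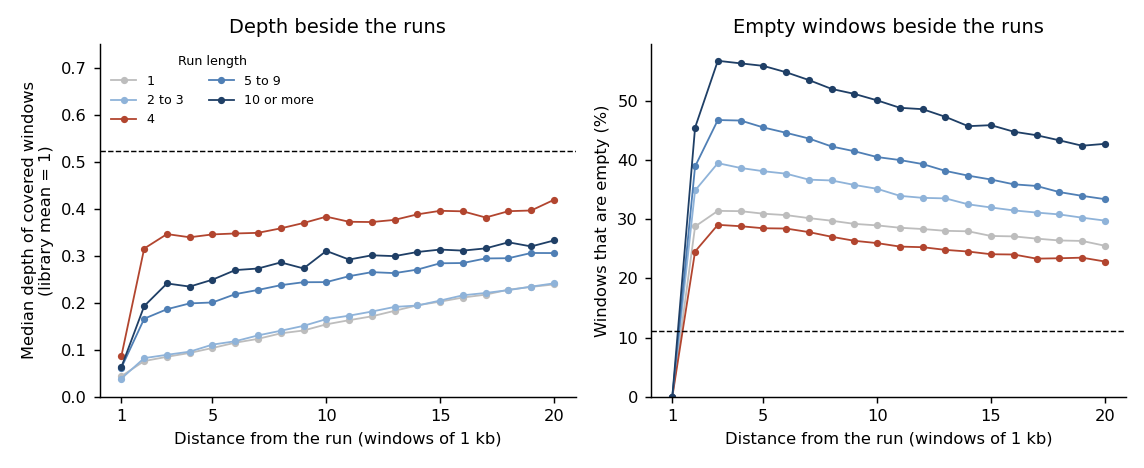
Left, median depth of covered windows relative to the library mean by distance from a run, from 1 to 20 windows, for 5 classes of run length, with the median of all covered windows (0.522) dashed. Right, percent of windows at the same distances that were themselves empty, with the share over all windows (11.2%) dashed; runs of 4 windows are highest on the left and lowest on the right.

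Fragments in the windows that adjoined an empty one were nearly as long as elsewhere. The difference in mean length was between -2.29 bp (Young 2) and -0.15 bp (MA 2), and was negative in 6 of 6 libraries. Intervals deposited more than once in a library were commoner there, at 1.37% to 3.59% of the fragments against 1.26% to 1.62% in other covered windows, and were higher in 6 of 6 libraries. With windows of a mean count over 1000 left out, the shares were 0.882% to 1.37% and 0.337% to 0.614%. Counting each interval once, which cannot change whether a window is empty, gave a flank depth of 0.537-fold.

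No difference between the ages was detected in the share of windows empty in a single library or in the flanks of the empty windows. Windows empty in all 6 libraries cannot differ between the ages, by the rule. Thinned to the fragment total of the smallest library, the share of empty windows was 17.9%, 19.1% and 18.01% in the MA libraries, against 17.04%, 18.4% and 16.9% in the Young libraries. The groups overlapped. The means were 18.3% ± 0.650 and 17.4% ± 0.820 (SD, n = 3 each), a difference of 0.882 percentage points (two-sided exact permutation test, p = 0.3, and 0.6 with Benjamini-Hochberg adjustment over the 2 age tests). The difference was 0.508 points without MA 2 and 1.35 points without Young 2, and the overlap of the groups rested on Young 2, without which they did not overlap (exact p = 0.1). With all libraries, but with the windows empty in all 6 left out, it was 0.992 points (p = 0.3 in the same exact test). Those windows are empty in every library, so leaving them out only rescales the shares and could not change the p-value. For flank depth over the mean of all windows the mean log2 values were -0.71 ± 0.017 in MA and -0.70 ± 0.0078 in Young libraries (p = 0.7 in the same exact test, adjusted p = 0.7). With 3 libraries against 3 this test cannot give a p below 0.1, and these p-values do not show that the ages are alike.

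Window by window, flank windows with a mean count of 10 or more separated the ages no more often than such windows of the genome did. That count was reached by 25.2% of covered windows within 5 windows of a run and 11.1% of adjoining ones, against 42.8% of all windows. Among all windows whose counts averaged 10 or more, the 3 MA and 3 Young libraries did not overlap in 122070 of 913832 (13.4%). Within 5 windows of a run this held for 10155 of 75975 (13.4%), with the MA libraries above in 5527 and below in 4628, against 68584 above and 53486 below over all windows. In the windows that adjoin a run it held for 1677 of 12878 (13.02%). Windows empty in all 3 MA libraries but not in all Young libraries numbered 31326 (1.47% of all windows), and 32556 (1.52%) showed the reverse. Of these, 2363 had no fragment in any MA library and at least 1 in each Young library, and 2121 had none in any Young library and at least 1 in each MA library. Both counts belong to the 39456 windows empty in exactly 3 libraries, which can be any of 20 choices of 3. The other choices were not counted, so these numbers do not show windows particular to an age. Windows empty in all 3 MA libraries numbered 270177, and 88.4% of them were also empty in the Young libraries.

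The share of empty windows differed 2.25-fold between chromosomes. It was highest on chromosome 1 (14.6%, 43241 windows), followed by chromosome 5 (13.97%), chromosome 7 (13.9%) and chromosome 17 (13.7%). It was lowest on chromosome 13 (6.50%, 9447 windows) and chromosome 6 (7.26%), and the median was 11.5%. On chromosome X, outside the rule, 13.1% of the windows were empty in all libraries. The share followed neither chromosome length nor depth closely: across 18 chromosomes, which share the libraries and are not replicates, Pearson's r was 0.197 (Spearman's rho 0.0196) with length and -0.11 (rho -0.10) with mean depth.

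Single libraries ranked the chromosomes nearly alike. As deposited, MA 2 had the highest share on 18 of 18 chromosomes, and Young 1 the lowest on 17, with MA 1 lower on chromosome 12. The libraries differ in depth, whose part in this order was not tested by chromosome. Thinned to equal totals, MA 2 still had the highest share of the whole (19.1%). Young 3 then had the lowest (16.9%, against 17.04% in Young 1). Chromosome 1 had the highest share in each of them, from 20.3% in Young 1 to 23.2% in MA 2. Chromosome 13 had the lowest in 5 of 6, from 9.74% in Young 1 to 12.2% in Young 2, and in MA 2 chromosome 6 was lower still (12.5% against 13.02%). The longest run on chromosome 1 was chr1:294878001-294993000 (115 windows), 0.536 Mb from the chromosome end, with 0 or 1 fragment per library before it and 2 to 4 after it. On chromosome 13 it was chr13:62794001-62871000 (77 windows), likewise between nearly empty neighbours.

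**Figure D5:**
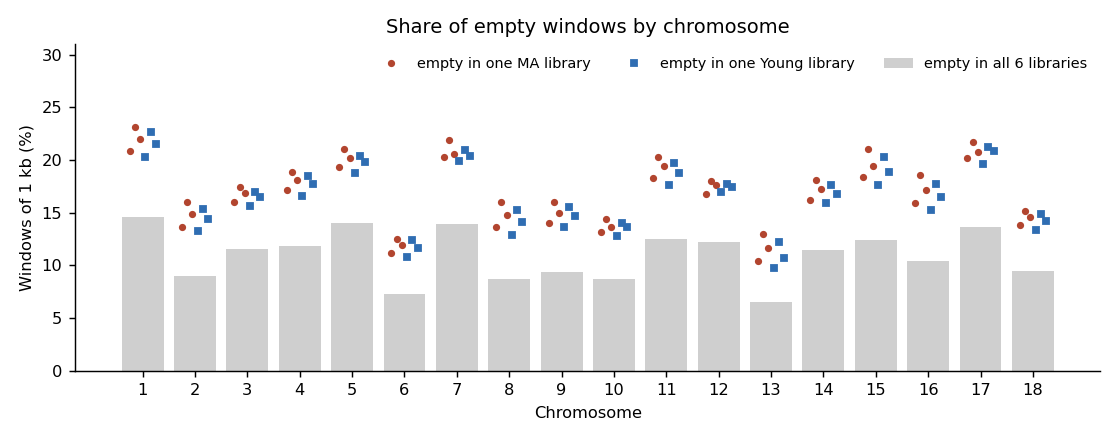
Percent of 1 kb windows without a fragment on each chromosome: bars are windows empty in all 6 libraries, from 6.50% (chromosome 13) to 14.6% (chromosome 1), and points are windows empty in a single library (circles MA, squares Young). The points of both ages overlap on every chromosome.

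Within chromosomes the empty windows were unevenly spread. Bins of 1 Mb held a median of 91 empty windows of 1000 (quartiles 44 and 154), and 10 of 2128 bins held none. The emptiest bin was chr5:36000001-37000000, with 733 empty windows and a depth of 0.0758 of the library mean, and it contains the run of 118 windows named above. It was followed by chr5:29000001-30000000 (564 windows, depth 0.231) and chr1:1000001-2000000 (547 windows). The mean depth of the last of these was 1.25 of the library mean, although 547 of its 1000 windows were empty. How evenly its covered windows shared this depth was not examined. Across bins, which share libraries and neighbour each other, the number of empty windows and the depth were weakly related (r = -0.22, rho = -0.29).

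Toward the chromosome ends depth rose much more than the share of empty windows changed. By distance from the nearest end, depth relative to the library mean was 2.25 within 1 Mb, 1.97 at 1 to 2 Mb, 2.01 at 2 to 5 Mb, 1.48 at 5 to 10 Mb, 1.06 at 10 to 20 Mb and 0.791 beyond. The share of empty windows at the same distances was 11.99%, 13.3%, 10.1%, 9.91%, 10.0% and 11.6%. The higher share in the outermost megabases did not hold throughout. Within 1 Mb of the nearest end it was 14.6% on chromosomes 1 to 12 but 6.82% on chromosomes 13 to 18, where it was 12.4% at 1 to 2 Mb and 10.1% beyond 20 Mb.

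In the outer 5 Mb as a whole, 11.1% of windows were empty against 11.2% in the rest, a ratio of 0.992. It was below 1 on 8 of 18 chromosomes, with the lowest value on chromosome 5 (0.451) and the highest on chromosome 1 (1.40). For windows empty in a single library the ratio was 0.965, 0.923 and 0.963 in the MA libraries, against 1.01, 0.930 and 0.968 in the Young libraries. The width mattered for the direction: the ratio was 1.07 with the outer 1 Mb and 0.928 with the outer 10 Mb.

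The 2 ends of a chromosome differed on average, with wide ranges between chromosomes. Pig chromosomes 1 to 12 have 2 arms and chromosomes 13 to 18 are acrocentric, with the centromere near 1 end. In the first 2 Mb, the mean share of empty windows was 16.4% over chromosomes 1 to 12 (5.85% to 38.1%), at a depth of 2.75, and was above that of the whole chromosome on 9 of 12. It was 14.4% without chromosome 1, which held the highest value. In the last 2 Mb it was 11.9% (4.30% to 32.2%), above that of the whole chromosome on 5 of 12, and 10.1% without chromosome 1, whose ends were both rich in empty windows. On chromosomes 3, 6, 9 and 10 the last 2 Mb had the higher share of the 2 ends. On chromosomes 13 to 18 the first 2 Mb had 8.81% (4.15% to 14.5%) at a depth of 1.06, or 0.642 without chromosome 18, and the last 2 Mb 10.4% (1.90% to 18.3%) at a depth of 2.53. These shares were above that of the whole chromosome on 2 of 6 for the first 2 Mb and 3 of 6 for the last. High depth near an end therefore occurred both with many empty windows, as at the start of chromosome 7 (27.0%, depth 2.60), and with few, as at the end of chromosome 13 (1.90%, depth 3.03).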

How the data were processed

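Reads were paired and 50 bp long per the labels. Per the methods of the study, the authors aligned them to Sscrofa9.2 with SOAP2 2.21 (up to 4 mismatches), removed ambiguous reads and kept reads at the same location once. The authors deposited fragment positions (chromosome, start, end), with no counts and no other normalized value. Positions were read as 1-based and inclusive (smallest start 1, shortest interval 50 bp), and intervals listed more than once were kept. Fragments were counted here by midpoint in complete windows of 1 kb, up to the largest end on each chromosome, with Python 3.11.15, numpy 2.4.6 and scipy 1.17.1. Depth was scaled to the fragments of the library on chromosomes 1 to 18. Single values per library were compared by two-sided exact permutation tests, over all 20 assignments of the libraries to the ages, or by sign flips over pairs. A planned sign-flip test of flank depth is not reported, since the choice of windows partly sets its direction. These tests treat the libraries as interchangeable between the ages, and nothing in the labels says how the animals relate. Their p-values refer to these samples only. The procedures were tested on simulated data.

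Windows, run classes and tests were chosen with earlier results of these data known. Named runs are the 5 longest, the 3 with the highest adjoining counts among runs of 3 or more windows, and the longest on the chromosomes with the highest and the lowest share. Alternatives covered window size and grid, flank width, repeated intervals, thinning, the outer width, pairing by replicate number and leaving out each library. Gaps of the assembly, CpG content, repeats and genes were not analysed here.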

Additional observations from a re-analysis of the deposited data

How the results depend on the processing

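The total length of the empty windows, 238851 kb, stayed within 1.5 times its value under 11 of 12 alternatives, of which counting each interval once could not change it, and was 84865 kb with windows of 5 kb. Runs of 5 or more windows of 1 kb held 137875 empty windows. The ratio of the outer 5 Mb to the rest was near 1, and its direction depended on the setting: it was 1.03 with windows of 5 kb, 1.07 for the outer 1 Mb and 0.928 for the outer 10 Mb. The flank depth against covered windows lay below 0 (log2) under every alternative. With a library left out it was -0.88 to -0.87. Its direction is partly set by the choice of windows, so its p-values are not given.

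The difference in flank depth between the ages lay between -0.012 and 0.0044 (log2) with a library left out, and it reversed without MA 3 (0.0044). With the replicate number as a block, this difference was -0.0053 (exact p = 0.75) and that in the share of empty windows was 0.882 points (exact p = 0.25, the smallest that 3 pairs allow). Deviations of same-numbered libraries correlated at -0.22, 0.0754 and -0.19, which gives no sign that the numbers pair the samples. In the thinned share of empty windows, however, the library numbered 2 was highest in both ages (19.1% in MA 2 and 18.4% in Young 2). Whether the samples are paired is therefore not settled. Over its alternatives the difference in the share of empty windows was 0.0748 to 1.84 points, with exact p-values between 0.1 and 0.6. Leaving out the windows empty in all 6 libraries is among them and could not change the p-value.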
